A study of Mus musculus with 12 samples.

Results

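The mitochondrial route of fatty acid oxidation, from uptake at the cell membrane to the last step of the beta-oxidation spiral, was followed through a list of 32 genes in mouse hearts with and without ADAM12, after sham surgery or pressure overload. Each gene was read on the brightest array probe set that carried its symbol alone. By this rule 27 of the 32 genes were read, among 26989 genes in all. Etfb was read only on a probe set shared with the microRNA gene Mir7051 and is given apart, and Cpt1a, Eci1, Acaa2 and Acsl1 were not analysed here. Fabp3 and Mlycd each had a further probe set of their own, far dimmer, at levels from 4.72 to 5.11 and from 3.91 to 4.42 on the log2 scale of the array.

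Heart RNA was hybridised to 12 Clariom D arrays, 1 per biological replicate, in 4 groups of 3. All mice were male, of strain C57BL/6J and listed as 10 weeks of age. The groups were wild-type hearts after a sham operation, wild-type hearts after TAC, ADAM12 knockout hearts after a sham operation and ADAM12 knockout hearts after TAC, each taken 2 weeks after surgery. TAC, transverse aortic constriction, narrows the aorta so that the left ventricle pumps against a raised pressure, and ADAM12 is a membrane-anchored metalloprotease. How the knockout allele was made, and in which cells, was not given in the sources used here. The design asked which genes change in the heart under TAC when ADAM12 is missing.

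The adult heart draws most of its energy from fatty acids. These enter the muscle cell through transporters, are bound to coenzyme A, cross into mitochondria as carnitine esters, and are shortened by a repeated cycle of dehydrogenation, hydration, a further dehydrogenation and thiolysis, with the electrons passed on to the respiratory chain. Malonyl-CoA blocks the entry step, and nuclear receptors of the PPAR and estrogen-related families, with the coactivator encoded by Ppargc1a, drive transcription of many of the enzymes. A fall of these transcripts is a well-known feature of pressure-overloaded hearts.

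Adam12 itself shared its probe set with 5830403F22Rik, and only 37.8% of probe sets were dimmer. The 6 knockout arrays read 4.25 to 4.40 and the 6 wild-type arrays 4.46 to 4.80, so the genotypes did not overlap, although the difference did not pass in a fit of all probe sets (-0.37 ± 0.09 after TAC, adjusted p = 0.163; -0.19 ± 0.09 after sham, adjusted p = 0.868). Whether these probes lie in the deleted part was not known. Array medians ran from 5.06 to 5.19 and those of background probe sets from 2.96 to 3.17. Cardiomyocyte markers were bright on every array, with a mean level of 16.15 to 16.39 over 9 measured markers, while the white fat markers Adipoq and Plin1 averaged 5.35 and 4.69, close to or below the median gene at 5.41.

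In knockout hearts 24 of the 27 genes fell after TAC, and none rose. All 27 differences were below 0, as were 57.4% over all genes. Differences are given as log2 TAC minus sham with the limma standard error, and calls are at an adjusted p below 0.05 by limma over all 26989 genes, of which 5.68% were called lower in this comparison. The median difference over the 27 genes was -0.71, beside -0.03 over all genes. The knockout TAC arrays lay below all knockout sham arrays for 25 of the 27 genes, against 16.9% of all genes. In wild-type hearts 26 of the 27 differences were also below 0, against 43% over all genes, with a median of -0.34 beside 0.02 over all genes, but only Slc27a1 was called, where 0.111% of all genes were called lower. There 23 of the 27 genes were lower at an unadjusted p under 0.05, against 5.54% of all genes, and the wild-type TAC arrays lay below all wild-type sham arrays for 22 of the 27, against 7.07%. In bulk heart RNA, fewer muscle cells in the sample and less RNA per muscle cell cannot be told apart.

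**Figure D1:**
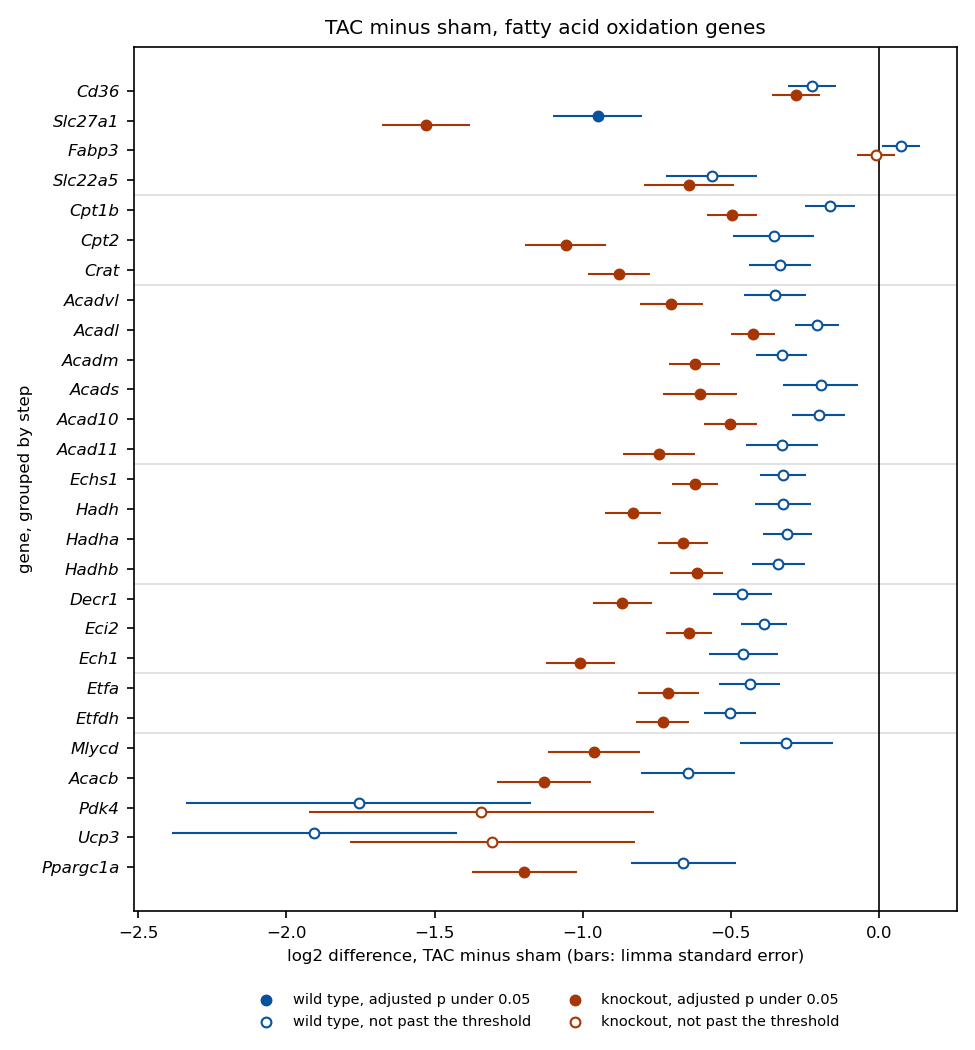
Log2 difference of TAC minus sham for each of the 27 genes, ordered by step, in wild-type (blue) and knockout (brown) hearts, with bars for the limma standard error. Filled points passed an adjusted p under 0.05. In knockout hearts 24 points are filled, from Slc27a1 at -1.53 to Cd36 at -0.28, and in wild-type hearts 1 is.

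At the cell membrane, Slc27a1, a fatty acid transport protein with acyl-CoA synthetase activity, had the largest called fall within a genotype. Its level was 10.06, 9.84 and 10.09 on the wild-type sham arrays and 9.22, 8.69 and 9.23 on the wild-type TAC arrays. In the knockout it was 10.24, 10.34 and 10.32 after sham and 9.01, 8.64 and 8.66 after TAC. Sham and TAC arrays did not overlap in either genotype. Slc27a1 fell by 0.95 ± 0.15 in wild-type hearts (adjusted p = 0.0374), to 51.8% of the sham signal, and by 1.53 ± 0.15 in knockout hearts (adjusted p = 0.000389), to 34.7%. The wild-type call was lost in 9 of 12 fits that left out 1 array, those that omitted any of the sham arrays, replicate 1 or 2 of wild-type TAC, or replicate 3 of knockout TAC (adjusted p from 0.063 to 0.15). Over all 12 fits the difference lay between -1.04 and -0.77. The call was also lost with all probe sets tested (adjusted p = 0.0522), with the atrial marker Myl7 as a covariate (adjusted p = 0.0927) and with the wild-type arrays alone (adjusted p = 0.236).

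The other uptake genes changed less. Slc22a5, the carnitine transporter, fell by 0.64 ± 0.15 in knockout hearts (adjusted p = 0.0168), a call lost when replicate 1 of knockout sham or replicate 2 of knockout TAC was omitted (adjusted p = 0.0641 and 0.0614), and differed by -0.56 ± 0.15 in wild-type hearts (adjusted p = 0.158). Cd36, the main fatty acid translocase of heart muscle and capillary endothelium, fell by 0.28 ± 0.08 in knockout hearts (adjusted p = 0.0429), to 82.3% of sham. That call was lost without any 1 of the 3 wild-type sham, 3 knockout sham or 3 knockout TAC arrays (adjusted p from 0.052 to 0.149). It was also lost under 5 other settings, quantile normalization (adjusted p = 0.0776), median centring (adjusted p = 0.0598), all probe sets (adjusted p = 0.101), Myl7 as a covariate (adjusted p = 0.0843) and the knockout arrays alone (adjusted p = 0.0587). Cd36 differed by -0.22 ± 0.08 in wild-type hearts (adjusted p = 0.282).

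Fabp3, the fatty acid binding protein of heart muscle cytosol, was the exception among the uptake genes. Its level was 18.79, 18.68 and 18.74 after sham and 18.89, 18.79 and 18.75 after TAC in wild-type hearts, and 18.80, 18.79 and 18.79 after sham and 18.78, 18.80 and 18.79 after TAC in the knockout. The groups overlapped in both genotypes. The difference was 0.07 ± 0.06 in wild-type hearts (adjusted p = 0.695) and -0.01 ± 0.06 in knockout hearts (adjusted p = 0.957), with a 95% interval from -0.15 to 0.13 in the latter. The knockout value turned to 0.05 after quantile normalization and to 0.01 with the mean of both Fabp3 probe sets. The probe set lay near the top of the table, whose highest value was 19.93, and how far the array still resolves changes there was not tested. Nor was it tested for Cd36 and Acadl, the next brightest of the 27 genes at mean levels of 17.79 and 17.45. Both had the smallest called differences in knockout hearts, at -0.28 and -0.42.

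All 3 genes read for the carnitine shuttle fell in the knockout. Cpt2, which rebuilds acyl-CoA inside the mitochondrion, read 13.82, 13.68 and 13.77 after sham and 13.73, 13.19 and 13.28 after TAC in wild-type hearts. In the knockout it read 13.99, 13.72 and 14.06 after sham and 12.75, 12.94 and 12.90 after TAC. The knockout TAC arrays were the lowest of all 12, while wild-type TAC replicate 1 lay within the sham range. Cpt2 fell by 1.06 ± 0.14 in knockout hearts (adjusted p = 0.000678), to 48.1% of sham, and differed by -0.35 ± 0.14 in wild-type hearts (adjusted p = 0.313).

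Crat, which exchanges acetyl groups between coenzyme A and carnitine, read 13.56, 13.50 and 13.50 after sham and 13.38, 12.98 and 13.20 after TAC in wild-type hearts. In the knockout it read 13.62, 13.54 and 13.65 after sham and 12.83, 12.55 and 12.80 after TAC. Here every TAC array lay below every sham array of both genotypes, and the knockout TAC arrays lay lowest. Crat fell by 0.88 ± 0.10 in knockout hearts (adjusted p = 0.000539) and differed by -0.33 ± 0.10 in wild-type hearts (adjusted p = 0.22). Cpt1b, the muscle form of the entry enzyme, had the smallest fall of the shuttle genes, by 0.49 ± 0.08 in knockout hearts (adjusted p = 0.0027), and differed by -0.16 ± 0.08 in wild-type hearts (adjusted p = 0.46).

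The acyl-CoA dehydrogenases, which start each turn of the spiral and differ in the chain length they accept, all fell in the knockout, 6 of 6. Acadvl, for very long chains, fell by 0.70 ± 0.11, Acadl by 0.42 ± 0.07, Acadm, for medium chains, by 0.62 ± 0.09 and Acads, for short chains, by 0.60 ± 0.13. Acad10 and Acad11, further members of the family, fell by 0.50 ± 0.09 and 0.74 ± 0.12. Their adjusted p-values in the knockout lay between 0.000964 and 0.00843. In wild-type hearts none of the 6 was called, with differences from -0.35 for Acadvl to -0.20 for Acads. Without wild-type TAC replicate 2 the difference was -0.05 for Acads, -0.13 for Acad10 and -0.17 for Acad11. Acads was the dehydrogenase whose wild-type sham and TAC arrays overlapped.

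The later steps of the spiral fell together as well, 4 of 4 in the knockout. Hadh, the hydroxyacyl-CoA dehydrogenase for short and medium chains, read 15.43, 15.30 and 15.47 after sham and 15.15, 14.88 and 15.21 after TAC in wild-type hearts. In the knockout it read 15.41, 15.34 and 15.46 after sham and 14.55, 14.50 and 14.68 after TAC. The 12 arrays fell into 3 levels without overlap, the sham arrays of both genotypes highest, then wild-type TAC, then knockout TAC. Hadh fell by 0.83 ± 0.09 in knockout hearts (adjusted p = 0.000446), to 56.3% of sham, and differed by -0.32 ± 0.09 in wild-type hearts (adjusted p = 0.184). Echs1, the enoyl-CoA hydratase for short chains, fell by 0.62 ± 0.08 in the knockout.

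Hadha and Hadhb encode the alpha and beta subunits of the mitochondrial trifunctional protein, which carries out the later steps for long chains. Their RefSeq transcript starts in GRCm38.p6 lie head to head on chromosome 5, Hadha at 30154980 on the minus strand and Hadhb at 30155253 on the plus strand, with 272 bases between them. The window from 250 bases before to 50 bases after the start of Hadhb is shown because 228 of its bases, in capitals, also belong to the window of Hadha. It is chr5:30155003-30155302 on the plus strand.
Hadhb: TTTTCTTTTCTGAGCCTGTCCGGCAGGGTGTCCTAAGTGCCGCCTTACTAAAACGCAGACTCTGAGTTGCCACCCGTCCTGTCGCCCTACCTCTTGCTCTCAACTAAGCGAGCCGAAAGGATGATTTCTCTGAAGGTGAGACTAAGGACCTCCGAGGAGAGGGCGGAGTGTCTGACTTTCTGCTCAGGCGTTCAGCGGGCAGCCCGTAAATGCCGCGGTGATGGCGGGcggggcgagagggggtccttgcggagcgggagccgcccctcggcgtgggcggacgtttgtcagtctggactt
The pair moved by like amounts, which was not particular to it. Echs1, on chromosome 7, differed by -0.62 in knockout and -0.32 in wild-type hearts. In knockout hearts Hadha fell by 0.66 ± 0.08 (adjusted p = 0.000633) and Hadhb by 0.62 ± 0.09 (adjusted p = 0.00118), and in wild-type hearts they differed by -0.31 ± 0.08 and -0.34 ± 0.09 (adjusted p = 0.158 and 0.149). On the knockout TAC arrays Hadha read 16.31, 16.21 and 16.34 and Hadhb 16.56, 16.58 and 16.60, each below all of the other 9 arrays.

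The auxiliary enzymes that let unsaturated fatty acids enter the spiral fell in the knockout, 3 of 3. Ech1, a dienoyl-CoA isomerase, read 13.33, 13.13 and 13.39 after sham and 13.02, 12.61 and 12.84 after TAC in wild-type hearts, and 13.27, 13.20 and 13.49 after sham and 12.38, 12.24 and 12.32 after TAC in the knockout. Decr1, a dienoyl-CoA reductase, read 15.10, 14.97 and 15.07 after sham and 14.62, 14.41 and 14.73 after TAC in wild-type hearts, and 14.96, 14.84 and 15.14 after sham and 14.05, 14.17 and 14.12 after TAC in the knockout. For both genes the sham arrays, the wild-type TAC arrays and the knockout TAC arrays formed 3 separate levels. Ech1 fell by 1.01 ± 0.12 in knockout hearts (adjusted p = 0.000468), to 49.7% of sham, and Decr1 by 0.87 ± 0.10 (adjusted p = 0.000468). In wild-type hearts they differed by -0.46 ± 0.12 (adjusted p = 0.136) and -0.46 ± 0.10 (adjusted p = 0.091). Eci2, an enoyl-CoA isomerase, fell by 0.64 ± 0.08 in the knockout and differed by -0.39 ± 0.08 in wild-type hearts (adjusted p = 0.0803).

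Electrons from the dehydrogenases pass through the electron transfer flavoprotein to its ubiquinone oxidoreductase. Etfa, the alpha subunit of the flavoprotein, fell by 0.71 ± 0.10 in knockout hearts (adjusted p = 0.00114) and Etfdh, the oxidoreductase, by 0.73 ± 0.09 (adjusted p = 0.000565). In wild-type hearts Etfdh had the second lowest adjusted p of the 27 genes, at -0.50 ± 0.09 (adjusted p = 0.0604), and Etfa differed by -0.44 ± 0.10 (adjusted p = 0.114). The shared probe set of Etfb, the beta subunit, read 13.13, 13.22 and 13.49 on the knockout sham arrays and 12.25, 12.48 and 12.43 on the knockout TAC arrays, and fell by 0.89 ± 0.13 in the fit of all probe sets (adjusted p = 0.00192). In wild-type hearts it differed by -0.36 ± 0.13 (adjusted p = 0.325).

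Of the remaining 5 genes, grouped here as control of the pathway and fuel choice, 3 fell in knockout hearts and all 5 fell with genotypes averaged. Ppargc1a, the coactivator of PPAR and estrogen-related receptors, read 15.08, 15.09 and 14.94 after sham and 14.47, 14.11 and 14.54 after TAC in wild-type hearts, and 15.27, 15.18 and 15.16 after sham and 14.03, 13.58 and 14.41 after TAC in the knockout. Sham and TAC did not overlap in either genotype, whereas the TAC arrays of the genotypes did. Ppargc1a fell by 1.20 ± 0.18 in knockout hearts (adjusted p = 0.00129), to 43.6% of sham, and differed by -0.66 ± 0.18 in wild-type hearts (adjusted p = 0.156).

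The enzymes that make and remove malonyl-CoA, the inhibitor of the entry step, both fell in the knockout. Acacb, the mitochondrial acetyl-CoA carboxylase that makes it, read 11.96, 11.91 and 12.25 after sham and 11.67, 11.11 and 11.41 after TAC in wild-type hearts, and 12.17, 11.91 and 12.31 after sham and 10.99, 10.82 and 11.20 after TAC in the knockout. Mlycd, malonyl-CoA decarboxylase, which removes it, read 8.92, 8.40 and 8.68 after sham and 8.67, 8.05 and 8.34 after TAC in wild-type hearts, and 8.76, 8.90 and 8.86 after sham and 7.78, 7.96 and 7.91 after TAC in the knockout. The Acacb arrays separated by surgery in both genotypes, and the Mlycd arrays in the knockout alone. In knockout hearts Acacb fell by 1.13 ± 0.16 (adjusted p = 0.00101), to 45.7% of sham, and Mlycd by 0.96 ± 0.16 (adjusted p = 0.00206), to 51.3%. In wild-type hearts they differed by -0.65 ± 0.16 (adjusted p = 0.123) and -0.31 ± 0.16 (adjusted p = 0.444). The wild-type Mlycd difference moved to -0.19 when replicate 1 of the sham arrays was omitted, and to -0.47 or -0.16 when replicate 1 or 2 of the TAC arrays was. On the further Mlycd probe set, dim at 3.91 to 4.42, TAC and sham differed by -0.32 in knockout and 0.03 in wild-type hearts.

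Pdk4, the kinase that shuts off pyruvate dehydrogenase and so favours fat over glucose, varied more between replicates than any other of the genes. Its level was 17.26, 15.80 and 18.25 after sham and 16.17, 14.97 and 14.90 after TAC in wild-type hearts, and 16.12, 17.40 and 17.25 after sham and 15.17, 16.22 and 15.36 after TAC in the knockout. Sham and TAC overlapped in both genotypes. The difference was -1.76 ± 0.58 in wild-type hearts (adjusted p = 0.241) and -1.34 ± 0.58 in knockout hearts (adjusted p = 0.179). Averaged over genotypes Pdk4 fell by 1.55 ± 0.41 (adjusted p = 0.0278), a call lost in 8 of 12 fits that left out 1 array, namely on omission of replicate 1 or 3 of wild-type sham or knockout TAC, or of replicate 2 or 3 of wild-type TAC or knockout sham (adjusted p from 0.0541 to 0.0702, differences from -1.88 to -1.26 over all 12).

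Ucp3, a mitochondrial carrier of muscle whose transcript follows fatty acid supply, was also variable. It read 8.85, 7.44 and 9.84 after sham and 7.15, 6.34 and 6.92 after TAC in wild-type hearts, and 7.79, 7.17 and 7.63 after sham and 5.70, 6.44 and 6.54 after TAC in the knockout. Sham and TAC did not overlap within a genotype, but wild-type sham replicates alone spanned from 7.44 to 9.84. The difference was -1.91 ± 0.48 in wild-type hearts (adjusted p = 0.135) and -1.30 ± 0.48 in knockout hearts (adjusted p = 0.11), and averaged over genotypes Ucp3 fell by 1.61 ± 0.34 (adjusted p = 0.00877). By limma on the knockout arrays alone the knockout difference was called (adjusted p = 0.0178). It was also called without wild-type sham replicate 2 or 3 (adjusted p = 0.0221 and 0.0412), but not in the other 10 fits that left out 1 array. The wild-type difference was called only without wild-type sham replicate 2 (adjusted p = 0.044). Within groups the SD was 0.84 for Pdk4 and 0.70 for Ucp3, against a median of 0.13 over the 27 genes and 0.14 over all genes. Wild-type sham replicate 3 was the highest array for both genes, and among wild-type sham arrays replicate 2 was the lowest for both.

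**Figure D2:**
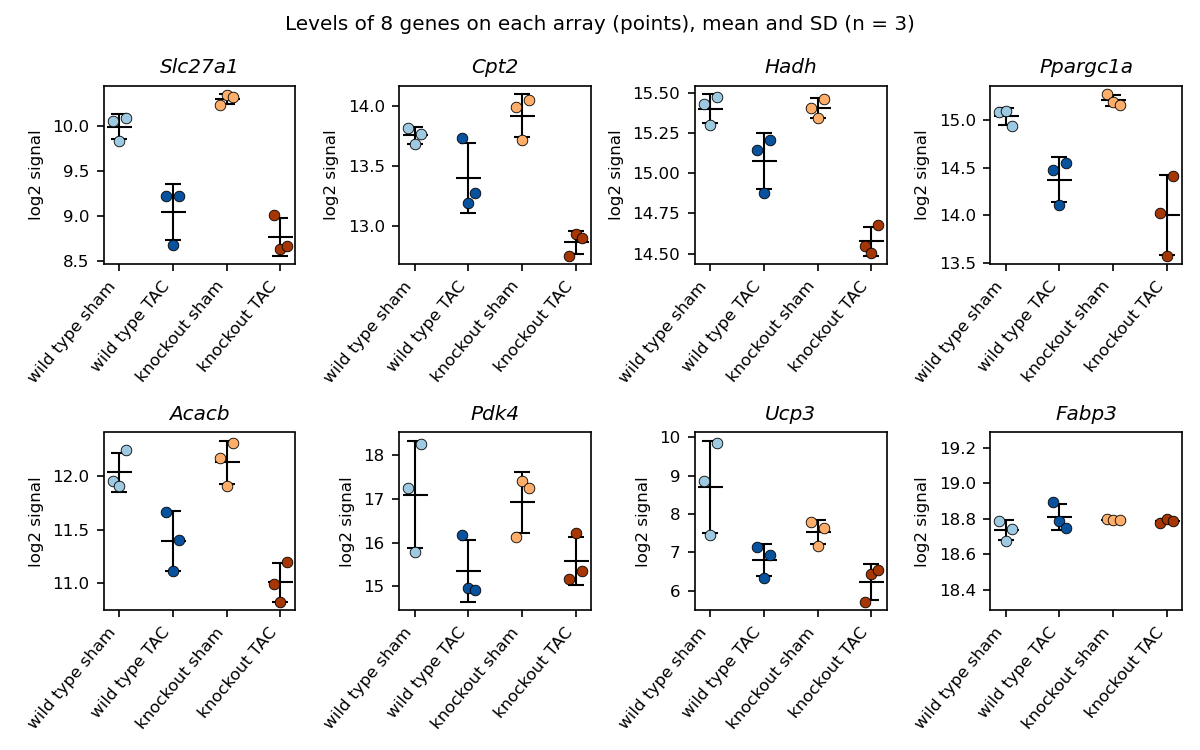
Log2 signal of 8 genes on each of the 12 arrays (points, by group), with the mean and SD of 3 replicates. Hadh and Cpt2 show knockout TAC arrays below all others, Pdk4 and Ucp3 spread over more than the other genes within groups, and Fabp3 stays between 18.68 and 18.89.

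With both genotypes averaged, 26 of the 27 genes fell after TAC, where 6.12% of all genes were called lower, with a median of -0.57. The exception was Fabp3 at 0.03 ± 0.05 (adjusted p = 0.751), and the averaged call of Cd36, at -0.25, was lost after quantile normalization (adjusted p = 0.0566).

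The promoters of the genes were searched for 3 short motifs of nuclear receptors and for the E-box, a motif of basic helix-loop-helix factors, in RefSeq windows from 250 bases before to 50 bases after the start (GRCm38.p6), which 24 of the 27 genes had. The receptor hexamer AGGTCA, on either strand, lay in the windows of 6 of 24 genes (25.0%), Acadm, Acadvl, Cd36, Echs1, Ucp3 and Acacb, and in 18.1% of 27025 genes with a window. The exact direct repeat of this hexamer with 1 base between, the classical PPAR element, lay in the windows of 0 of 24 genes and in 0.048% of genes. Looser forms of the element, and sites outside the windows, were not searched for, so the count does not tell whether they are present. The estrogen-related receptor site TCAAGGTCA, which contains the hexamer, lay in 0 of 24 and in 0.466% of genes, and the E-box CACGTG in 1 of 24, that of Slc27a1, and in 8.09% of genes. Ucp3 is shown because it was the gene with 2 such hexamers, in capitals, which begin 149 and 44 bases before the start, in the window chr7:100472741-100473040 on the plus strand.
Ucp3: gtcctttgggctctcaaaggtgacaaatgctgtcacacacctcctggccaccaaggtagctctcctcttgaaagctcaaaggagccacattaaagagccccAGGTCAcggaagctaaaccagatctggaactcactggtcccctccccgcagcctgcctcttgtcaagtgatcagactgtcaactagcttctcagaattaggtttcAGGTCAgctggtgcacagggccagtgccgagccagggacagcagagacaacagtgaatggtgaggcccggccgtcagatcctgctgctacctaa
The hexamer is a short match and describes the letters in the window only. In knockout hearts the 6 genes with it differed by between -1.30 (Ucp3) and -0.28 (Cd36), and the genes without it included both Slc27a1 at -1.53 and Fabp3 at -0.01.

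The genotypes were then set side by side after the same surgery. After TAC, 26 of the 27 genes were lower in knockout than in wild-type hearts in value, with a median of -0.36 beside -0.04 over all genes, where 61.7% of genes had a difference below 0. None of the 27 passed by limma, and 0.0111% of all genes were called in this comparison, none of them lower. At an unadjusted p under 0.05, 20 of the 27 genes were lower, against 7.67% of all genes, and at an adjusted p under 0.1, 9 of the 27 were, against 0.715%. All 3 knockout TAC arrays lay below all 3 wild-type TAC arrays for 18 of the 27 genes, against 11.3%.

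The smallest p-values in this comparison belonged to Hadh at -0.50 ± 0.09 (adjusted p = 0.0592), Decr1 at -0.47 ± 0.10 (adjusted p = 0.0661), Crat at -0.46 ± 0.10 (adjusted p = 0.0724) and Ech1 at -0.51 ± 0.12 (adjusted p = 0.0724). The other 5 genes with an adjusted p under 0.1 were Hadha, Acadm, Acads, Hadhb and Cpt2, at -0.54 to -0.36. These values rest on the same knockout TAC arrays as the fall after TAC in the knockout, so the comparisons are not independent. They also rest on wild-type TAC replicate 2, the lowest array of its group for 24 of the 27 genes. Replicate 2 was also the lowest array for 19 of the 27 genes in either sham group and for 17 in the knockout TAC group. Without wild-type TAC replicate 2, 12 of the 27 genes were called lower, where 774 of all 26989 genes were called in either direction. The median over the 27 genes was then -0.46. Hadh stood at -0.60 (adjusted p = 0.00726), Decr1 at -0.56 (adjusted p = 0.0166), Crat at -0.57 (adjusted p = 0.0166) and Ech1 at -0.62 (adjusted p = 0.0196). In each of the other 11 fits that left out 1 array none of the 27 was called. The median closest to 0 was -0.28, and the highest adjusted p of Hadh was 0.238.

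Slc27a1, Ppargc1a and Acacb, which had the largest called falls in the knockout, differed less clearly between the TAC groups, by -0.28 ± 0.15, -0.37 ± 0.18 and -0.39 ± 0.16 (adjusted p = 0.429, 0.368 and 0.281), and their TAC arrays overlapped. Pdk4 was the gene with a difference above 0, at 0.23 ± 0.58 (adjusted p = 0.887).

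**Figure D3:**
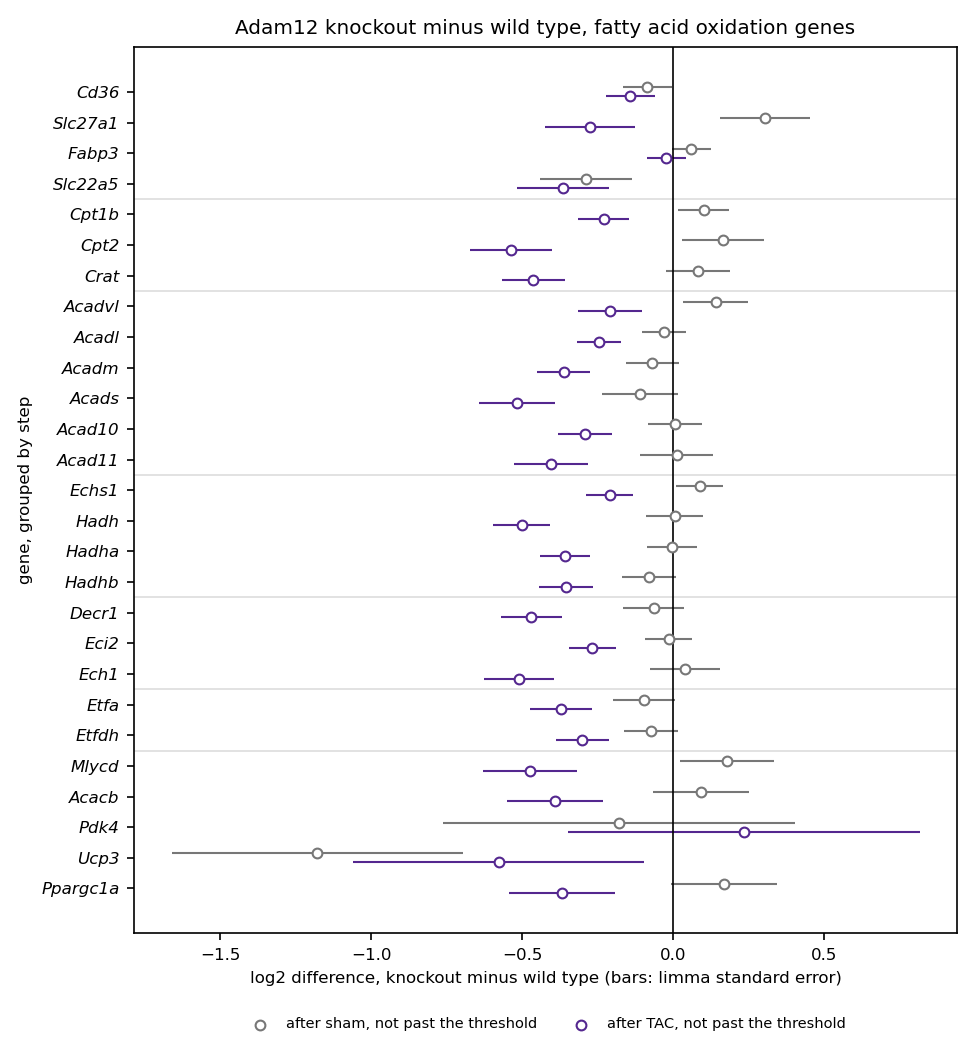
Log2 difference of knockout minus wild type for each of the 27 genes after sham (grey) and after TAC (purple), with bars for the limma standard error. All points are open, since none passed an adjusted p under 0.05. After TAC 26 points lie below 0, and after sham 13 do.

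After sham surgery the genotypes were close for most of the genes. The median difference over the 27 genes was 0.00 and 13 were below 0, against 48.1% over all genes. None was called by limma, with a lowest adjusted p of 0.891, and 0% of all genes were called. At an unadjusted p under 0.05, 1 of the 27 genes was lower, against 2.72% of all genes. That gene was Ucp3, at -1.18 ± 0.48 for knockout minus wild type (adjusted p = 0.891). The sham arrays of the genotypes did not overlap for 5 of the 27 genes, against 12.3% of all genes, with Slc22a5 lower and Slc27a1, Fabp3, Echs1 and Ppargc1a higher in the knockout, none of them called. For Slc27a1 the sham difference was 0.30 ± 0.15 (adjusted p = 0.905), opposite in sign to that after TAC.

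The interaction, which is the TAC difference in knockout hearts minus that in wild-type hearts, was below 0 for 25 of the 27 genes, against 58.8% over all genes, with a median of -0.33 beside -0.04 over all genes. By limma none of the 27 passed, with a lowest adjusted p of 0.268, and 0% of all genes were called. At an unadjusted p under 0.05, 16 of the 27 genes had an interaction below 0, against 5.93% of all genes. The smallest p-values were those of Hadh at -0.51 ± 0.13, Crat at -0.55 ± 0.15 and Cpt2 at -0.70 ± 0.19, each at adjusted p = 0.268, and Ech1 at -0.55 ± 0.16 (adjusted p = 0.278). Pdk4 at 0.41 ± 0.82 and Ucp3 at 0.60 ± 0.68 were the genes with a value above 0, both within 1 standard error. No gene was thus shown to respond differently to TAC in the knockout.

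**Figure D4:**
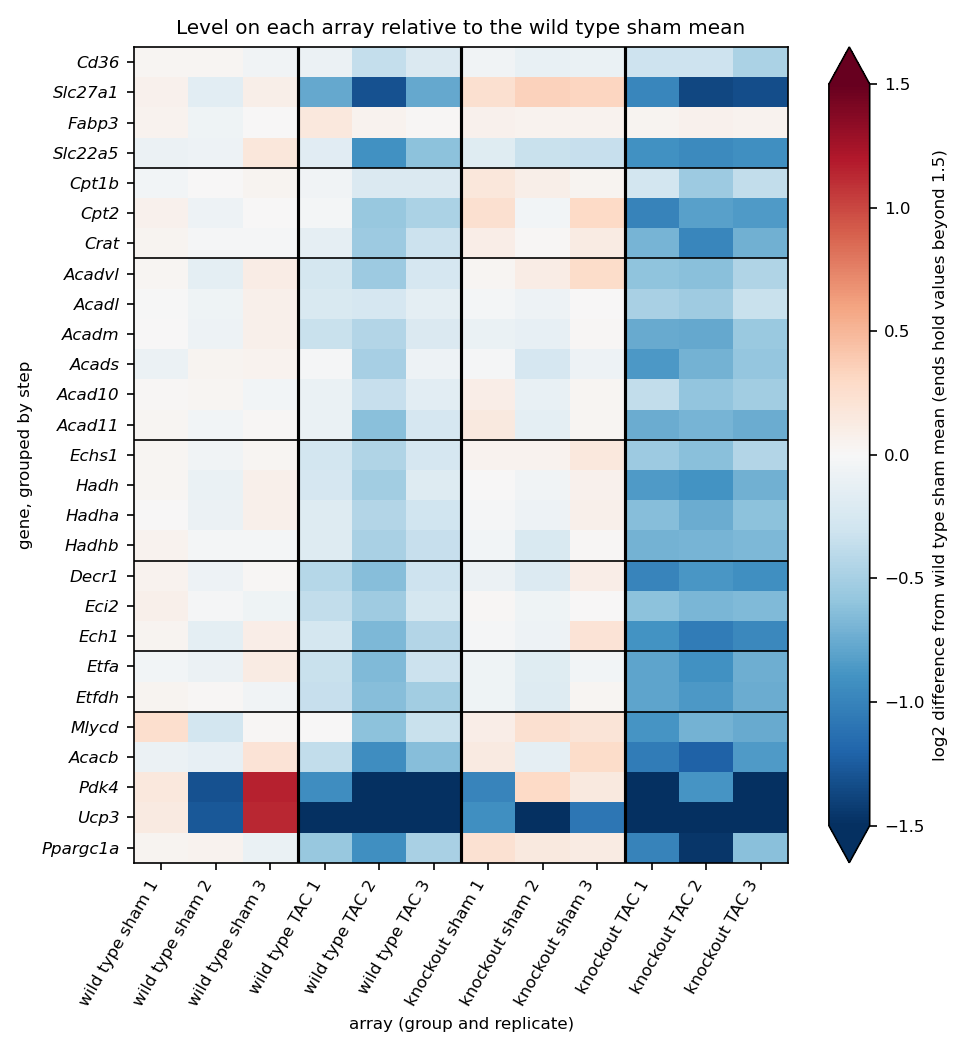
Level of the 27 genes (rows, grouped by step) on each of the 12 arrays (columns), as the log2 difference from the wild-type sham mean of the gene, with blue for lower and red for higher. The knockout TAC columns are bluest, wild-type TAC replicate 2 is the bluest of its group, and the Fabp3 row stays pale.

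Array by array, the median over the 27 genes, taken against the wild-type sham mean, was 0.03, -0.07 and 0.05 on the wild-type sham arrays and 0.01, -0.08 and 0.06 on the knockout sham arrays. It was -0.25, -0.54 and -0.32 on the wild-type TAC arrays and -0.79, -0.76 and -0.72 on the knockout TAC arrays. The TAC arrays did not overlap with the sham arrays or between genotypes. On the knockout TAC arrays 26 of the 27 genes lay below the wild-type sham mean in each replicate.

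Markers of the cell types in the heart moved beside these genes. The mean level of 9 cardiomyocyte markers was 16.31 to 16.33 on wild-type sham, 16.23 to 16.29 on wild-type TAC, 16.37 to 16.39 on knockout sham and 16.15 to 16.24 on knockout TAC arrays. In knockout hearts 2 of the 9 fell after TAC, where 5.68% of all genes were called lower. These were Tnni3, cardiac troponin I, by 0.58 ± 0.08 and Ryr2, the calcium release channel, by 0.48 ± 0.08. The median over the 9 was -0.10, beside the -0.71 of the oxidation genes. The knockout TAC arrays lay below all knockout sham arrays for 7 of the 9, against 16.9% of all genes. How far the array resolves changes at the bright level of these markers was not tested. Fibroblast markers rose in the knockout, 6 of 8, with a median of 1.37, where 7.08% of all genes were called higher. The list was not uniform, since 1 of the 8 differed by -0.37. It was not called, but its knockout TAC arrays lay below all knockout sham arrays. The log2 of their summed signal, in which bright markers weigh most, was 17.02 to 17.22 on wild-type sham and 16.80 to 17.50 on wild-type TAC arrays. It was 16.92 to 17.11 on knockout sham and 17.46 to 17.81 on knockout TAC arrays. By mean level the fibroblast markers read 11.7 to 11.9, 11.9 to 13.1, 11.7 to 11.8 and 13.2 to 13.6 in that order of groups. Macrophage and monocyte markers rose too, 7 of 7. The log2 of their summed signal was 13.27 to 13.61, 13.91 to 14.13, 13.28 to 13.59 and 14.19 to 15.12 in the same order of groups.

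Of 9 endothelial markers 2 rose and 1 fell in the knockout, where 7.08% of all genes were called higher and 5.68% lower. None of 6 atrial or 6 white fat markers was called there. The mean level of the atrial markers varied widely between replicates, from 10.92 to 13.02 on knockout sham and from 10.96 to 12.42 on knockout TAC arrays. In wild-type hearts none of the markers was called after TAC. The brown fat list had 4 measured genes, of which Ucp1 averaged 3.57, while Dio2 rose by 2.82 and Prdm16 fell by 0.40 in the knockout. The part of these cell type markers in the fall of the oxidation genes was not tested.

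**Figure D5:**
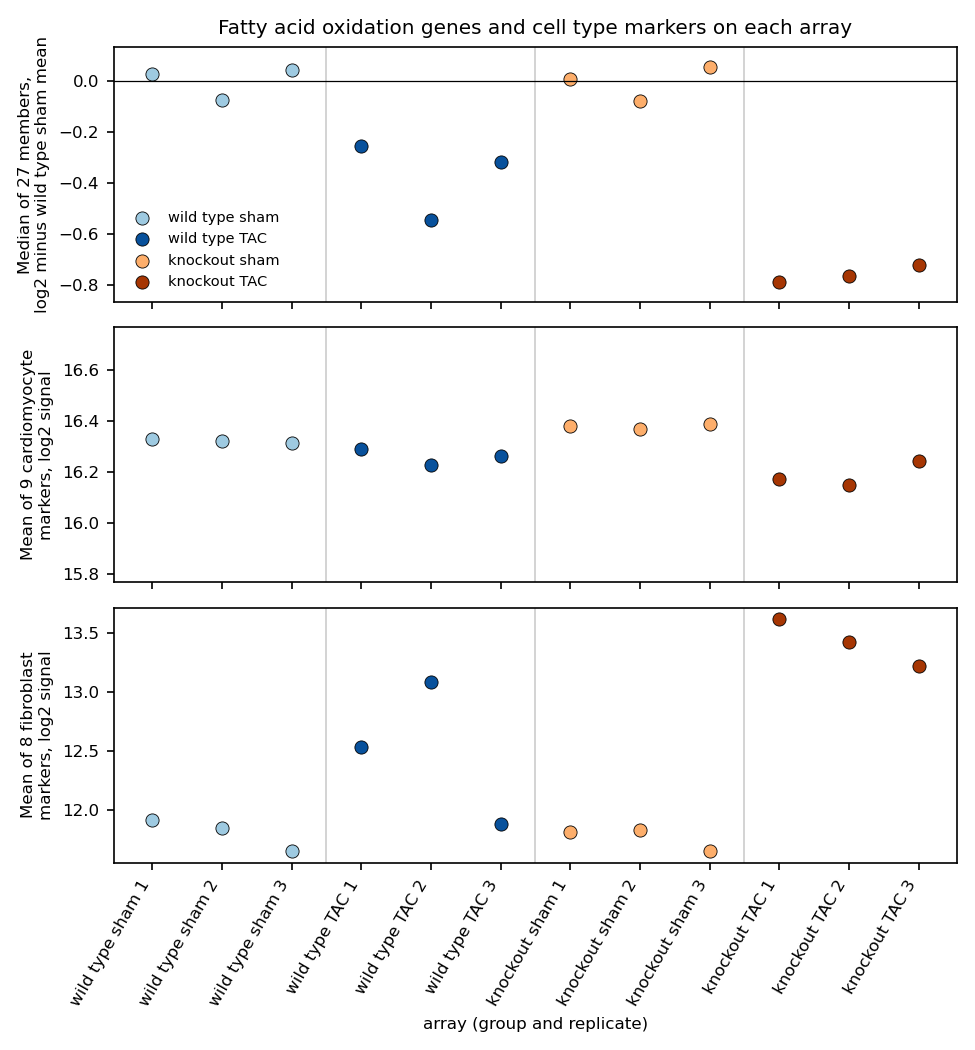
Median of the 27 genes relative to the wild-type sham mean (top), mean level of 9 cardiomyocyte markers (middle) and mean level of 8 fibroblast markers (bottom) on each of the 12 arrays, coloured by group, in log2 units. The 27-gene median falls from between -0.08 and 0.06 on sham arrays to between -0.79 and -0.72 on knockout TAC arrays, where the fibroblast mean is 13.22 to 13.62.

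Other genes of the pathway were taken from 4 lists, which were drawn up with earlier results of these data known. Apart from Ppara, up to 4 genes per list are named, those of smallest p by limma for TAC in knockout hearts. Over all genes 5.68% were called lower and 7.08% higher in knockout hearts, and the lists were not tested against each other. Of 11 measured genes among 14 further mitochondrial oxidation enzymes, 10 fell and none rose in knockout hearts, with a median of -0.55. Acsm5, a medium-chain acyl-CoA synthetase, fell by 1.35 ± 0.13, Acad12 by 0.97 ± 0.12, Pcca, a subunit of propionyl-CoA carboxylase, by 0.83 ± 0.09 and Hsd17b10, a mitochondrial hydroxyacyl-CoA dehydrogenase, by 0.75 ± 0.10. Among 13 measured of 17 peroxisomal genes, 4 fell and none rose, with a median of -0.11. These were Ehhadh, the peroxisomal bifunctional enzyme, by 0.89 ± 0.19, Abcd3 and Abcd2, peroxisomal fatty acyl-CoA transporters, by 0.72 ± 0.11 and 0.48 ± 0.11, and Eci3, an isomerase, by 0.47 ± 0.07.

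Among 17 measured of 20 other genes of uptake, activation and the carnitine shuttle, 6 fell and 3 rose in knockout hearts, with a median of -0.06. Slc25a20, which carries acylcarnitine across the inner mitochondrial membrane between the steps of Cpt1b and Cpt2, fell by 1.18 ± 0.13, and Acss1, a mitochondrial acetyl-CoA synthetase, fell by 1.32 ± 0.14. Got2, the mitochondrial aspartate aminotransferase, fell by 0.33 ± 0.07, and Cpt1c, a form of the entry enzyme known from brain, rose by 0.54 ± 0.09.

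Of 17 measured genes among 26 regulators of fatty acid oxidation, 10 fell and 1 rose in the knockout, with a median of -0.44. Rxrg, a retinoid X receptor, fell by 0.75 ± 0.12, Esrrg, an estrogen-related receptor, by 0.60 ± 0.09 and Pdk2, a pyruvate dehydrogenase kinase, by 0.87 ± 0.14, while its relative Pdk3 rose by 0.68 ± 0.13. Ppara, the receptor most tied to fatty acid oxidation in heart, fell by 0.88 ± 0.17 (adjusted p = 0.00645), and was named after its value was seen. In wild-type hearts after TAC, between the genotypes after either surgery and in the interaction, none of the genes in these 4 lists was called.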

How the data were processed

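The authors labelled 250 ng of total heart RNA and hybridised it to Affymetrix Clariom D arrays, per the labels. The deposited table holds log2 signals (1.27 to 19.93) for 65527 probe sets, made with Affymetrix Expression Console per the submitters' processing notes; its version is not given in the sources used here, nor is the normalization, and the log2 scale was read from the values. Control probe sets (6732) were left out, and of the other 58795, 27268 carried 1 symbol, 1932 several and 29595 none. Each gene was its brightest probe set with 1 symbol. No filter on dim genes was applied.

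Groups were compared with limma 3.58.1 in R 4.3.3, over all 12 arrays with 1 mean per group (residual degrees of freedom 8, prior 3.29), 2-sided, with Benjamini-Hochberg adjustment over 26989 genes. Shared probe sets (Etfb, Adam12) come from a fit of all probe sets. The procedure was tested on simulated data. The genes and lists were chosen with earlier results of these data known.

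Values on every array are given for genes called in wild-type hearts, the 6 largest called differences in the knockout, the 4 smallest p between the TAC groups and in the interaction, and genes opposite to the median; those of Pdk4, Ucp3, Hadha and Hadhb were added after their values were seen. From other lists up to 4 genes of smallest p are named. Cell type markers named singly were likewise chosen after their values were seen. Sequences are from RefSeq windows of GRCm38.p6.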

Additional observations from a re-analysis of the deposited data

How the results depend on the processing

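In knockout hearts 22 to 24 of the 27 genes fell after TAC over the 10 other settings and the 12 fits without 1 array, and 25 or 26 fell with genotypes averaged. In wild-type hearts the count of 1 was 4 without genes below the median level, where 211 of 13495 genes were called. It was 2 with a trended and robust variance (59 of 26989 genes called) and 5 with array weights (352 of 26989). It was 0 with all probe sets tested, with only the arrays of the groups compared or with Myl7 as a covariate, a setting chosen after seeing the data. Without 1 array it was 0 to 3. Between the TAC groups the count of 0 was 9 without genes below the median level, where 622 of 13495 genes were called, and 0 to 12 without 1 array. After sham and in the interaction it was 0 in each of these. The median between the TAC groups was -0.27 with array weights and between -0.46 and -0.28 without 1 array; the other 128 of 130 medians stayed within 0.091, the SD within groups. Fabp3 in the knockout turned to 0.0513 after quantile normalization and to 0.0132 with the mean of its probe sets.

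With the replicate number as a block, 8 genes were called in wild-type hearts (Acadm, Slc27a1, Etfa, Etfdh, Ech1, Eci2, Decr1 and Acacb) and 7 between the TAC groups (Acadm, Hadh, Hadha, Etfa, Ech1, Decr1 and Crat). Over all 26989 genes, 266 were called in wild-type hearts and 575 between the TAC groups with this block. The labels do not say what a number stands for. Of 18 pairs of same-numbered arrays 10 had deviations correlated above 0.1 across genes (r from -0.068 to 0.315), not every pair, and 9 of 12 arrays correlated best with their own number, a hint from the data and not the design. Replicate 2 was the lowest array for 19, 24, 19 and 17 of the 27 genes in wild-type sham, wild-type TAC, knockout sham and knockout TAC hearts. The cause of these shifts was not tested. With 3 arrays per group their number limits the precision.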
